A study of Catharanthus roseus with 3 samples.

Results

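The MEP (methylerythritol phosphate) pathway of *Catharanthus roseus* was followed through 7 of the 59220 assembled transcripts, namely 6 that the study annotates as enzymes of this pathway and 1 for the isomerase that acts on its products. They were taken by identifier, in the order of the route: DXS1 (Cr_TC38811), DXS2 (Cr_TC36177), CMS (Cr_TC04791), CMK (Cr_TC34633), MECS (Cr_TC12522), HDR (Cr_TC43359) and IDI (Cr_TC33226). The rule that lists them uses no measured value, although earlier results of these data were known when it was written. DXR and HDS, the enzymes of the remaining steps, were not analysed here. The study sequenced 1 RNA library for each of 3 organs, leaf, root and flower, all from mature, field-raised material of the variety Prabal. Nothing in the labels says how many plants a library holds. With 1 library per tissue there was no spread between replicates, no test against such a spread was possible and no p-value is given. Values were taken as RPKM (reads assigned to a transcript, corrected for its length and for the size of the library), although they are headed as a base mean. Comparisons of level between different transcripts rest on this reading. Differences between tissues are in log2(RPKM + 1), which understates the change of low transcripts. A transcript was counted as different when this difference reached 1 (2-fold) and the larger of the values was at least 10 RPKM.

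Plants make the C5 units of terpenoids, isopentenyl and dimethylallyl diphosphate, by separate routes in the plastid (MEP pathway) and outside it (mevalonate pathway). DXS joins pyruvate and glyceraldehyde phosphate in the first step of the MEP pathway and is widely held to be a point of control. DXR then forms methylerythritol phosphate, to which CMS adds a cytidyl group, CMK a phosphate, and MECS closes the ring, releasing the nucleotide. HDS and HDR are the reductive last steps, and HDR releases both C5 units together, while IDI interconverts them. In *C. roseus*, plastid C5 units feed the monoterpenoid secologanin and through it the terpenoid indole alkaloids, but also carotenoids and the side chain of chlorophyll. The names are putative annotations by the study. None of the identifiers could be matched to the gene table at hand, so the names could not be checked, and no sequence or genome position is given. The labelled tissues could be checked against few genes. Vindoline synthesis is known from aerial tissue, and of its enzymes T16H (Cr_TC35206) had 7.01 RPKM in leaf, 0.04 RPKM in root and 17.3 RPKM in flower, and DAT (Cr_TC35622) 6.85 RPKM in leaf, 0.37 RPKM in root and 6.29 RPKM in flower. The low tissue for both was the library labelled root. The study had itself named both as low in root from these libraries, so they are not an independent check. Root was also lowest for D4H, NMT and 16OMT of the same branch, less clearly. D4H had 63.2 RPKM in leaf, but 2.39 in root and 3.45 in flower. NMT had 6.29 RPKM in root and 16.6 in flower, and 16OMT 3.44 and 10.1.

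The 3 libraries were close in total, with summed values between 452743 RPKM in leaf and 471970 in root. A value of at least 10 RPKM was reached by 8655 to 9928 transcripts per library. Among the transcripts compared, the median log2 difference was 0.26 for leaf against root, 0.07 for leaf against flower and -0.18 for root against flower. A scaling by the median ratio, used as an alternative, shifted every comparison of RPKM by -0.35 for leaf against root, by -0.12 for leaf against flower and by 0.23 for root against flower (log2). Transcript lengths were not used here, so the depth behind each value is unknown. In whole organs, fewer cells of a type and less RNA per cell cannot be told apart.

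All 7 transcripts were above 0 in every tissue. Leaf held the highest level for DXS1, CMK, MECS and HDR, flower for DXS2, CMS and IDI, and root for none, although with libraries scaled to the same total CMS was highest in leaf. Root held the lowest level for 5 of the 7. The exceptions were DXS1, lowest in flower, and IDI, lowest in leaf. The 7 transcripts, which leave out DXR and HDS, summed to 387 RPKM in leaf, 169.8 RPKM in root and 346 RPKM in flower. The leaf sum was 2.28 times the root sum and 1.12 times the flower sum, and the root sum was 0.491 times the flower sum. The order of the sums was leaf, flower, root, and the gap between leaf and flower was small beside that to root. No replicate shows whether leaf and flower differ beyond the variation between plants.

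**Figure D1:**
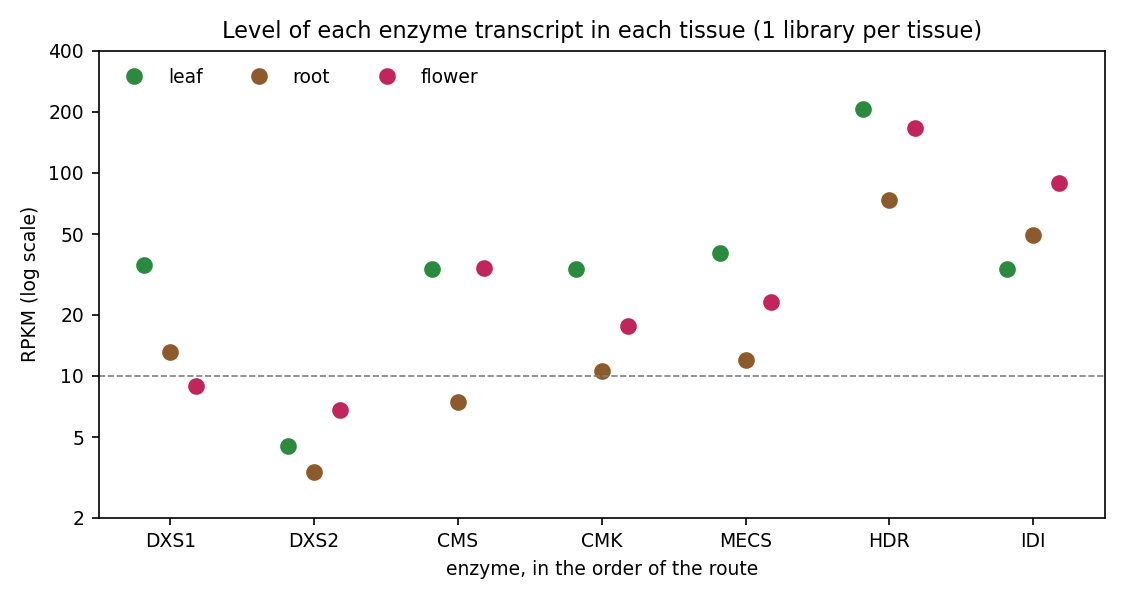
RPKM on a log axis for each enzyme transcript in the order of the route, with 1 point per tissue (1 library each) and a dashed line at 10 RPKM. In leaf, DXS1, CMS, CMK, MECS and IDI lie close together between 33.6 and 40.5 RPKM, while HDR stands above every other point of its tissue and DXS2 lies under 10 RPKM throughout.

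The entry step was carried by a pair of transcripts of unequal level. DXS1 had 35.1 RPKM in leaf, 13.1 RPKM in root and 8.88 RPKM in flower. DXS2 had 4.51 RPKM in leaf, 3.36 RPKM in root and 6.83 RPKM in flower. Leaf was the high tissue for DXS1, whereas DXS2 was low in every library and its highest value was in flower. The ratio of DXS1 to DXS2 within a library was 7.79 in leaf, 3.91 in root and 1.30 in flower, so that flower alone had nearly equal levels. This ratio does not depend on how the libraries were scaled. Together the pair reached 39.6 RPKM in leaf, 16.5 RPKM in root and 15.7 RPKM in flower. The summed level of DXS in root was thus 1.05 times that in flower, while the levels of the following enzymes were lower in root. Plant DXS genes are often placed in classes with housekeeping and specialized roles. Whether the numbers 1 and 2 used by the study follow those classes was not checked. Reads that matched both transcripts equally would have been discarded, since the authors kept uniquely mapped reads.

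The middle of the route, from CMS to MECS, was more even in leaf than in root and flower. CMS, which adds the cytidyl group, had 33.6 RPKM in leaf, 7.41 RPKM in root and 34.1 RPKM in flower. Leaf and flower were alike for CMS, and root was well below both. CMK, the kinase, had 33.6 RPKM in leaf, 10.6 RPKM in root and 17.6 RPKM in flower. MECS, the cyclase, had 40.5 RPKM in leaf, 12.0 RPKM in root and 23.1 RPKM in flower. CMK and MECS thus shared the order leaf, flower, root. Among CMS, CMK and MECS alone, the largest ratio was 1.21 in leaf (MECS over CMK). It was 1.62 in root (MECS over CMS) and 1.94 in flower (CMS over CMK). The wider spreads below include DXS1 from the entry step. In leaf, DXS1, CMS, CMK and MECS lay within 1.21-fold of each other (33.6 to 40.5 RPKM). The same 4 transcripts spanned 1.77-fold in root (7.41 to 13.1 RPKM) and 3.84-fold in flower (8.88 to 34.1 RPKM). Among these 4 transcripts in flower, DXS1 and CMS lay furthest apart, with 3.84 times as much CMS as DXS1. This ratio was 0.958 in leaf and 0.564 in root. DXR, which acts between DXS and CMS, was not analysed. With DXS2 added, the DXS level in flower was 15.7 RPKM, beside 34.1 RPKM for CMS.

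HDR, the terminal reductase, was the highest of the 7 in each library. It had 206 RPKM in leaf (rank 180 of 59220 transcripts), 73.9 RPKM in root (rank 1131) and 166 RPKM in flower (rank 293). HDR alone made up 53.3% of the summed level of the 7 in leaf, 43.5% in root and 48.0% in flower. This sum includes IDI but not DXR or HDS, the step before HDR. Relative to MECS, HDR was 5.09 times as high in leaf, 6.17 times in root and 7.19 times in flower. Relative to DXS1, it was 5.87 times as high in leaf and 5.62 times in root, but 18.7 times in flower. Relative to DXS2, it was 45.7 times as high in leaf, 22.0 times in root and 24.3 times in flower. The high position of HDR among the 7 was therefore common to the tissues. Its distance from the first step was widest in flower for DXS1 and in leaf for DXS2.

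IDI had a leaf level below those of root and flower, which none of the 6 MEP transcripts had. It had 33.6 RPKM in leaf (rank 3005), 49.4 RPKM in root (rank 1848) and 89.6 RPKM in flower (rank 804). Leaf, the tissue with the highest HDR, had the lowest IDI. The share of IDI in the summed level of the 7 was 8.67% in leaf, 29.1% in root and 25.9% in flower. HDR exceeded IDI 6.14-fold in leaf, 1.496-fold in root and 1.85-fold in flower. On the log2 scale the ratio of HDR to IDI was 2.04 higher in leaf than in root and 1.73 higher in leaf than in flower. Between root and flower it differed by -0.31. In *C. roseus* the enzyme is known to reach mitochondria and peroxisomes as well as plastids, and it also serves the mevalonate pathway. The transcript values do not show which of these compartments the RNA serves.

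**Figure D2:**
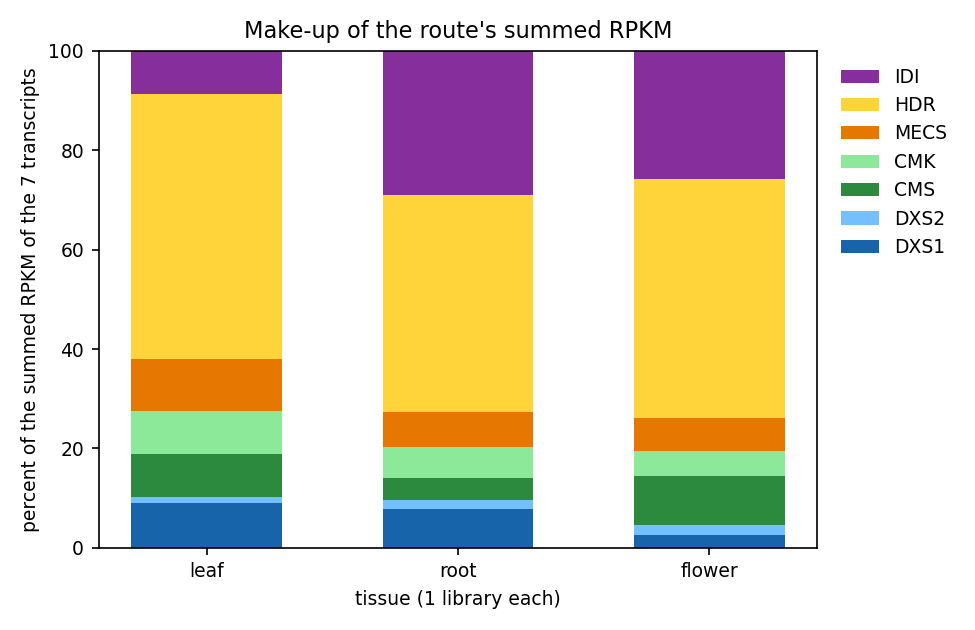
Stacked bars give the percentage of the summed RPKM of the 7 transcripts that each enzyme makes up within each library, starting at 0. HDR is the largest part in each tissue (53.3%, 43.5% and 48.0% in leaf, root and flower), and IDI takes 8.67% in leaf but 29.1% in root and 25.9% in flower.

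Leaf against root had the most transcripts of the route past the 2-fold line. Of the 6 transcripts compared, 5 reached 2-fold on the side of leaf and none on the side of root. Over all 12517 transcripts compared, 29.8% were at least 2-fold higher and 24.8% at least 2-fold lower in leaf. CMS showed the largest difference (33.6 RPKM in leaf, 7.41 in root, log2 difference 2.04), a transcript that stood above 84.4% of all those compared. MECS (40.5 RPKM in leaf, 12.0 in root) and CMK (33.6 RPKM in leaf, 10.6 in root) followed with log2 differences of 1.68 and 1.58. HDR (206 RPKM in leaf, 73.9 in root) and DXS1 (35.1 RPKM in leaf, 13.1 in root) differed by 1.47 and 1.35. These 5 lay between the 77.0 and 84.4 percentiles of all differences, so each was higher in leaf by an amount that many other transcripts also showed. IDI had 33.6 RPKM in leaf and 49.4 in root (log2 difference -0.54). DXS2, with 4.51 RPKM in leaf and 3.36 in root, was under the minimum and was not counted (log2 difference 0.34). The median log2 difference of the 6 compared was 1.52, beside 0.26 for all transcripts compared. After scaling by the median ratio or to a common upper quartile, the same 5 were at least 2-fold higher in leaf, although DXS1 was then near the line, at 1.02 and 1.04. The background shares were then 22.1% and 22.5% for higher in leaf, and 30.8% and 30.4% for lower.

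**Figure D3:**
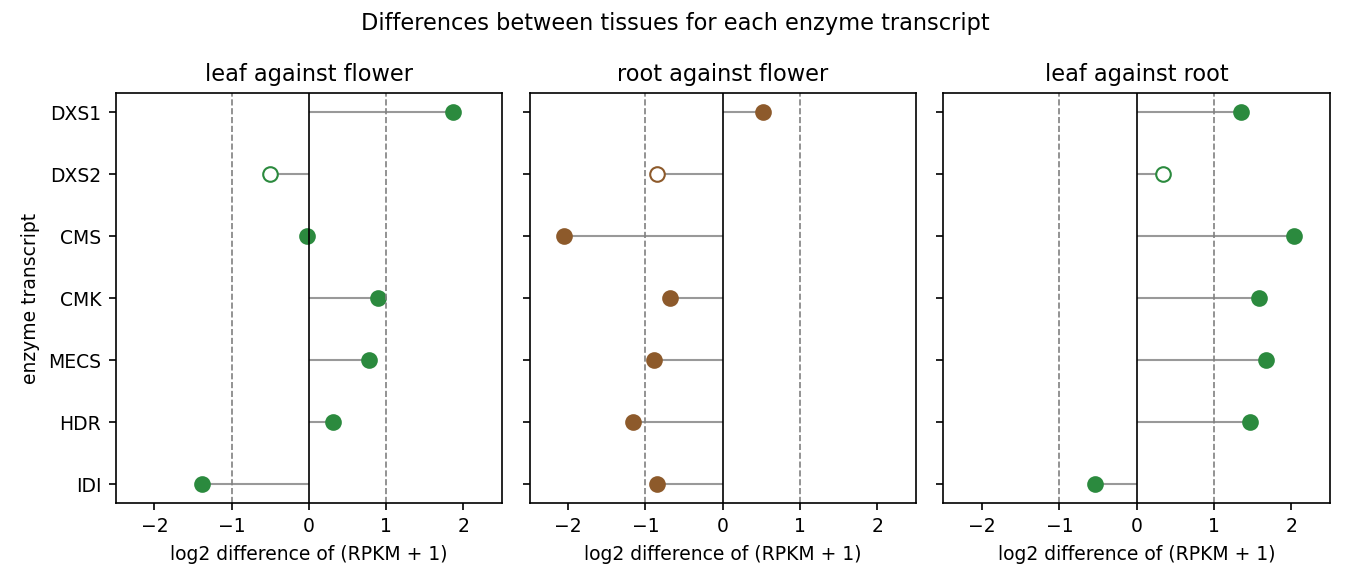
Log2 differences of (RPKM + 1) for each enzyme transcript in 3 comparisons, with dashed lines at 2-fold and open points for DXS2, whose values stay under 10 RPKM. DXS1, CMS, CMK, MECS and HDR lie past the line towards leaf in leaf against root, whereas leaf against flower has DXS1 (1.87) and IDI (-1.39) past it on opposite sides.

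Between leaf and flower, DXS1 and IDI differed in opposite directions and the other transcripts differed less. DXS1 had 35.1 RPKM in leaf and 8.88 in flower (log2 difference 1.87), and it was the 1 transcript of the 6 compared that was at least 2-fold higher in leaf. IDI had 33.6 RPKM in leaf and 89.6 in flower (log2 difference -1.39), and it was the 1 transcript at least 2-fold lower. Of all 12310 transcripts compared, 21.5% were at least 2-fold higher and 20.9% at least 2-fold lower in leaf, so a count of 1 in each direction among 6 is near the background. CMK (33.6 RPKM in leaf, 17.6 in flower) and MECS (40.5 RPKM in leaf, 23.1 in flower) had log2 differences of 0.89 and 0.78, inside the 2-fold line. HDR had 206 RPKM in leaf and 166 in flower (log2 difference 0.31), and CMS 33.6 RPKM in leaf and 34.1 in flower (log2 difference -0.02). Which of leaf and flower is higher for CMS depends on the scaling, since the difference was 0.02 when the libraries were scaled to the same total. The differences became smaller from CMK to MECS and HDR, but CMS, which acts before CMK, had the smallest in size. DXS2, with 4.51 RPKM in leaf and 6.83 in flower, lay below the minimum (log2 difference -0.51). Relative to IDI, each of the other 6 transcripts was higher in leaf than in flower. The log2 change of the ratio, which does not depend on the scaling, was 0.82 for DXS2 up to 3.40 for DXS1. IDI had the lowest difference of all members, so the direction follows from taking it as the reference.

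Root against flower had 2 of the 6 transcripts compared at least 2-fold lower in root and none at least 2-fold higher. Among all 11639 transcripts compared, 23.6% were at least 2-fold lower and 20.8% at least 2-fold higher in root. CMS had 7.41 RPKM in root and 34.1 in flower (log2 difference -2.06). HDR had 73.9 RPKM in root and 166 in flower (log2 difference -1.16). HDR was inside the 2-fold line after scaling by the median ratio (-0.93) and to a common upper quartile (-0.91). MECS (12.0 RPKM in root, 23.1 in flower), IDI (49.4 RPKM in root, 89.6 in flower) and CMK (10.6 RPKM in root, 17.6 in flower) had log2 differences of -0.89, -0.85 and -0.68, inside the line. DXS1 was the exception in direction, with 13.1 RPKM in root and 8.88 in flower (log2 difference 0.52). DXS2, with 3.36 RPKM in root and 6.83 in flower, had a log2 difference of -0.84 and was under the minimum. The median log2 difference of the 6 compared was -0.87, beside -0.18 for all transcripts compared. Both this comparison and that of leaf against flower use the same flower library.

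**Figure D4:**
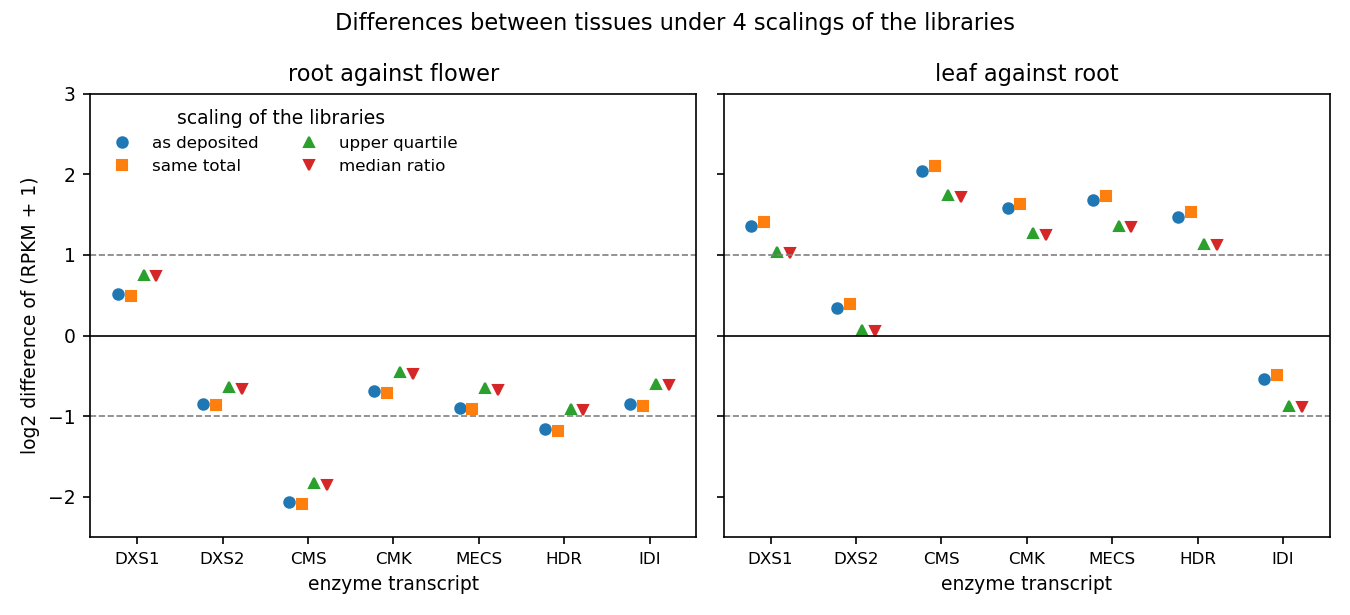
Log2 differences of (RPKM + 1) for each enzyme transcript under 4 scalings of the libraries, for root against flower and leaf against root, with dashed lines at 2-fold. Scaling to an upper quartile or by the median ratio shifts root upwards by a similar amount for each transcript, which takes HDR inside the line in root against flower and leaves DXS1 just past it in leaf against root.

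Within a library the ratios between members are free of the scaling, and their spread over the tissues differed from pair to pair. The ratio of MECS to CMK, enzymes of consecutive steps, was 1.21 in leaf, 1.13 in root and 1.31 in flower, a spread of 1.16-fold over the tissues and the smallest of the 21 pairs. The 3 pairs among CMK, MECS and HDR had the smallest spreads of the 21, up to 1.53-fold. No spread for pairs of other transcripts was computed beside them. The ratio of CMS to CMK, also consecutive, was less even, with 1.002 in leaf, 0.701 in root and 1.94 in flower. Pairs with IDI spread between 1.97-fold (DXS2) and 10.6-fold (DXS1). The median spread of all 21 pairs was 2.85-fold.

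Compared on the whole profile, by the largest of the 3 differences between their log2 differences, CMK and MECS were nearest to each other (0.21). Of the 13866 other transcripts that reached 10 RPKM in some tissue, 113 lay as near to CMK, which is 0.815%. MECS was also the nearest of 24 named alkaloid genes and pathway members to HDR (0.47), and 3.68% of the transcripts lay as near to HDR. For DXS1 the nearest was CMK, but at 1.20, a distance within which 11.1% of the transcripts also lay. DXS2 and IDI, both highest in flower, were nearest to each other (0.88), but loosely, since 22.4% of the transcripts lay as near to DXS2 and 7.63% as near to IDI. Each nearest gene was picked as the closest of 24, so a small share of transcripts as near follows partly from that choice. The shares were not tested against it. These distances rest on 3 tissues and describe the profiles only. How far a level ranged over the tissues was ordinary in the route, with a median range of 1.58 (log2) for the 7 transcripts and 1.51 for the 13867 transcripts reaching 10 RPKM. The 7 include DXS2 (range 0.84), which stayed under 10 RPKM and is not in the larger set. The other members ranged between the 46.8 percentile (IDI) and the 61.0 percentile (CMS) of that set.

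GPPS, whose enzyme takes up the C5 units, had a different order of tissues from HDR. GPPS (Cr_TC33950), annotated as a subunit of the synthase that joins C5 units to geranyl diphosphate, had 13.5 RPKM in leaf, 205 RPKM in root and 19.3 RPKM in flower. Leaf and flower were low and root high for GPPS, while root was the low tissue for HDR. HDR was 15.3 times as high as GPPS in leaf and 8.59 times in flower, but 0.36 times in root. The early terpenoid and iridoid branch was followed through 6 genes (GPPS, G10H, CPR, IS, LAMT and SLS). In leaf against root, 4 of them reached the 2-fold line on the side of root and 2 on that of leaf. For the MEP enzymes and IDI, 6 transcripts were compared (DXS2 was under the minimum), with 5 past the line towards leaf and none towards root. Among all 12517 transcripts compared, the share past it was 29.8% towards leaf and 24.8% towards root. All 6 genes of the branch were among those the study selected for RT-PCR because they differed between these tissues. The contrast is therefore a description. G10H (Cr_TC57680), which hydroxylates geraniol, had 35.8 RPKM in leaf and 8.14 in root. IS (Cr_TC07184), iridoid synthase, had 65.9 RPKM in leaf and 9.06 in root. These were the 2 genes at least 2-fold higher in leaf, as 5 of the MEP enzymes were. The 6 genes together had 229 RPKM in leaf, 1078 RPKM in root and 114.5 RPKM in flower, whereas the sum of the MEP enzymes and IDI was lowest in root. The root sum came mostly from SLS (Cr_TC01142, 577 RPKM), CPR (Cr_TC07063, 214 RPKM) and GPPS. LAMT (Cr_TC02224) had 64.1 RPKM in root, and G10H and IS were low there, so the sum is not a level shared by the 6 genes. Whether the lists differ could not be tested with 1 library per tissue.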

How the data were processed

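RNA from leaf, root and flower was sequenced on an Illumina instrument, with 1 library per tissue. Following the paper's methods, reads were quality filtered, duplicates removed, and the rest aligned to the assembled transcripts in CLC Genomics Workbench allowing 2 mismatches; reads shared by near-identical transcripts are lost in unique mapping. The values deposited carry the heading of a base mean but were taken as RPKM computed by the authors, from their 2 decimals and their sums. The submitters' processing notes name DESeq, and whether its size factors entered the values is not given in the sources used here. A DESeq test needs counts and replicates and was not run. Differences of log2(RPKM + 1) were computed on all 59220 transcripts, with 2-fold and a larger value of at least 10 RPKM as the rule of size. The code was tested on simulated data. Alternatives were pseudocounts of 0.1 and 10, no minimum, a minimum of 50 RPKM, 4-fold, and 3 scalings between libraries. The text names all 7 members, 6 genes of the branch to secologanin (CPR included), and the nearest profile among 24 named genes. The members and lists were chosen with earlier results of these data known. A gene table of the species matched 0 identifiers. Python 3.11.15, numpy 2.4.6, pandas 2.3.3 and matplotlib 3.10.9 were used.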

Additional observations from a re-analysis of the deposited data

How the results depend on the processing

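With 1 library per tissue, no value has an error, and a difference between plants or library preparations cannot be told apart from one between tissues. No paired analysis was possible because each tissue has a single library. Of 72 alternatives for the counts and summed levels, 52 stayed the same and 20 moved. A count moved when it changed by more than 1.5-fold or fell to 0, and a sum when its log2 ratio changed by more than 0.1. Of 105 alternatives for the differences of single transcripts, 100 stayed on the same side of the 2-fold line and in the same direction. Those that did not were CMS in leaf against flower, which turned to 0.017 with the same total, DXS2 in root against flower (-1.002 with a pseudocount of 0.1), DXS1 in leaf against root (0.96 with a pseudocount of 10), and HDR in root against flower (-0.91 and -0.93, to an upper quartile and by the median ratio).

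With a minimum of 50 RPKM, 0 of 2 members compared were at least 2-fold higher in leaf against flower (28.3% of all transcripts), 1 of 1 was higher in leaf against root (31.3%), and 1 of 2 was lower in root against flower (26.9%). At 4-fold, of 6 compared, 0 were higher (9.79% of all transcripts) and 0 lower (11.4%) in leaf against flower, 1 was lower in root against flower (11.9%) and 1 higher in leaf against root (16.1%), all near the background. Scaling to an upper quartile or by the median ratio left 1 of 6 lower in root against flower, which was CMS (18.5% and 18.8% of all transcripts). The log2 ratio of the summed level in leaf against flower was 0.16 as deposited, 0.042 by the median ratio, 0.0068 without HDR and 0.31 as the median of the members. In root against flower it was -1.03, -0.77 to an upper quartile, -0.79 by the median ratio, -0.91 without HDR and -0.85 as the median. In leaf against root it was 1.19, 0.86 to an upper quartile, 0.84 by the median ratio, 0.92 without HDR and 1.47 as the median. The signs of these sums did not change.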

Other observations

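Outside the terpenoid route, the profile of CMS was nearest to that of DAT (Cr_TC35622), the acetyltransferase at the end of vindoline synthesis, among the 24 named genes, at a largest difference of 0.48 on the log2 scale. DAT was lower in level, with 6.85 RPKM in leaf, 0.37 RPKM in root and 6.29 RPKM in flower, against 33.6, 7.41 and 34.1 RPKM for CMS in the same order. Both had leaf and flower alike and root lowest. The nearness rests on the pseudocount of 1, which is large beside the root value of DAT. By the plain ratio, leaf exceeded root 18.5-fold for DAT and 4.54-fold for CMS. Of all transcripts reaching 10 RPKM, 0.728% lay as near to CMS, and DAT itself stayed under that level. After each other, DXS2 and IDI had STR1 (Cr_TC04185), a strictosidine synthase, as the second nearest, at 1.099 and 1.60. STR1 had 18.4 RPKM in leaf, 8.31 RPKM in root and 34.8 RPKM in flower. These are likenesses over 3 libraries, picked as the closest or second closest among the 24 named genes, and were not tested.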
